A study of Mus musculus with 103 samples.

Results

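The 10 arrays described here all carried target made from 500 pg of the same RNA, a commercial pool of total RNA from mouse (Stratagene Mouse Universal Total RNA), out of 103 arrays in the series. They were chosen by protocol and input as the labels give them: 2 arrays each of 3 commercial amplification kits and 4 arrays of a protocol developed at Biogen Idec. AFFX2rd is the Affymetrix kit with a second amplification cycle, which gives biotinylated cRNA. ARCHS is the Arcturus RiboAmp HS kit, which also gives cRNA. NGN is the Nugen Ovation system and BIIB the Biogen Idec protocol, and both give cDNA target. The question was how each kit's signal differed from that of BIIB when the RNA was identical and the input very small. Arrays of the same 4 protocols at 5 ng (2, 2, 2 and 4 arrays) and 4 arrays of the same RNA labelled from 1 ug with the Affymetrix One Cycle kit (AFFX1rd, cRNA) served as points of comparison. No label says that replicates came from separate amplifications, so the p-values speak of array to array spread alone, and that spread may be technical. Each kit has 2 arrays, and that number limits the precision of every value below.

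All low-input labelling methods copy RNA many times before it reaches the array. In the Affymetrix and Arcturus kits, primers carrying a T7 promoter start cDNA at the poly(A) tail, RNA polymerase transcribes the cDNA into many antisense copies, and those copies are reverse transcribed and transcribed again. Ovation instead copies the cDNA linearly at constant temperature with a chimeric DNA and RNA primer. A gene's signal on such an array depends on how well its transcript was copied as well as on how abundant it was, and copies that start at the tail tend to thin out toward the 5' end.

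Among these arrays, AFFX2rd at 500 pg lay closest to the one-cycle signal of the same RNA, ARCHS and BIIB lay at a like distance from it, and NGN lay farthest. A probe set is the group of short probes that reads 1 transcript, and its signal was put on a log2 scale after 125 was added. Of 12904 probe sets with a mean signal of at least 500 over the 10 arrays, 86.7% and 76.6% lay within 2-fold of the one-cycle mean on the AFFX2rd arrays. On the ARCHS arrays these shares were 57.6% and 59.3%, and on the BIIB arrays they ran from 57.4% to 58.8%. On the NGN arrays they were 25.5% and 24.8%. Pearson's r with the one-cycle mean, across probe sets within 1 array, was 0.919 and 0.838 for AFFX2rd, 0.753 and 0.767 for ARCHS, 0.744 to 0.751 for BIIB, and 0.478 and 0.447 for NGN. Probe sets are not independent replicates, and these correlations are given as descriptions. The one-cycle kit is itself an Affymetrix cRNA protocol, so nearness to it is not nearness to the true RNA level.

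**Figure D1:**
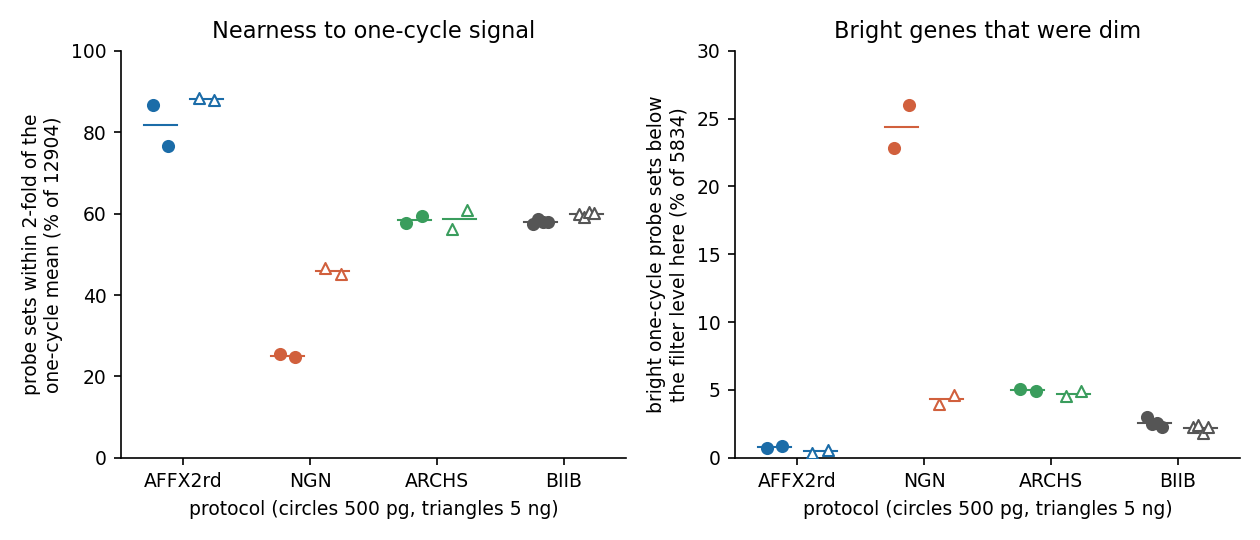
Left, share of probe sets within 2-fold of the one-cycle mean on each array. Right, share of probe sets bright on all 4 one-cycle arrays that fell below the filter level on each array. Filled circles are arrays at 500 pg, open triangles arrays at 5 ng, and short lines group means. The NGN arrays at 500 pg stand at 25.5% and 24.8% on the left and are the highest on the right.

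The loss of bright genes set NGN apart. Of 5834 probe sets at or above the common mean signal of 2501 on all 4 one-cycle arrays, 1331 and 1515 were below 500 on the NGN arrays. The same count was 43 and 51 for AFFX2rd, 297 and 289 for ARCHS and 133 to 174 for BIIB. At 5 ng the NGN arrays had 232 and 270 such probe sets. In the reverse direction, of 8063 probe sets below 500 on all one-cycle arrays, 133 and 122 reached 2501 on the NGN arrays, 65 to 72 on the BIIB arrays, 5 and 2 on the ARCHS arrays, and 0 and 85 on the AFFX2rd arrays.

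Replicates of NGN also differed most. Pearson's r between the 2 NGN arrays was 0.759, against 0.871 for AFFX2rd, 0.939 for ARCHS and a mean of 0.936 over the 6 pairs of BIIB arrays (0.925 to 0.958). The median SD between replicates was 0.71 log2 units for NGN, 0.38 for AFFX2rd, and 0.28 for both ARCHS and BIIB. Between the NGN arrays 1098 probe sets differed by 8-fold or more, against 88 between the AFFX2rd arrays and 11 between the ARCHS arrays. The genes with the largest such differences were taken among those at or above the common mean on the one-cycle arrays. They were read brightly on 1 NGN array and at 471.5 or less on the other. Ccnh, the cyclin partner of the CDK-activating kinase, gave 22490 and 23.8. Gtf3c6, a subunit of the RNA polymerase III factor TFIIIC, gave 41292 and 325. Tiprl, a regulator of protein phosphatase 2A-like enzymes, gave 471.5 and 78160, and Gtf3a, the 5S rRNA transcription factor, gave 213.7 and 40035. On the 4 BIIB arrays the lowest and highest signals were 14562 and 33061 for Ccnh, 4191 and 6654 for Gtf3c6, 2352 and 4892 for Tiprl, and 17865 and 31029 for Gtf3a.

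Replicate 2 of AFFX2rd stood apart from the other 9 arrays at the dim end. Its 1st percentile of signal was 140.8, against 2.5 to 19.5 on the others, and its median was 1249, against 619.3 on AFFX2rd replicate 1. Results for AFFX2rd are therefore also given without it. The BIIB arrays fell into a pair and a pair at the dim end, with 1st percentiles of 3.2 and 2.5 for replicates 1 and 2 and of 8.9 and 10.0 for replicates 3 and 4. Between the AFFX2rd arrays, the nuclear RNA Malat1 (1438403_s_at) gave 22518 and 1739, and Ywhab, a 14-3-3 protein, gave 1669 and 16873. On the ARCHS arrays the largest such differences were smaller in signal, as with the chaperone Hyou1 at 1072 and 59.7.

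Against BIIB, each kit differed at many probe sets, and the balance of directions differed by kit. A probe set was called where limma's test, with a weight for each group of arrays, gave a p under 0.05 after Benjamini-Hochberg adjustment together with a change of 2-fold or more. For AFFX2rd 3080 probe sets were called (23.9%), 1862 higher (14.4%) and 1218 lower (9.44%) than BIIB. For NGN 5051 were called (39.1%), 1388 higher (10.8%) and 3663 lower (28.4%). For ARCHS 5279 were called (40.9%), 2391 higher (18.5%) and 2888 lower (22.4%). The 3 comparisons share the BIIB arrays, so they are set side by side and their likeness to each other is not used as evidence. Over all probe sets the median difference from BIIB was 0.21 for AFFX2rd, -1.09 for NGN and -0.05 for ARCHS. Quantile normalization moved these medians to -0.03, -0.40 and 0.02 and the share of calls that were higher from 60.5% to 47.6% for AFFX2rd and from 27.5% to 39.8% for NGN. Probe sets whose kit arrays all lay above the 4 BIIB arrays made up 30.4% for AFFX2rd, 19.3% for NGN and 28.7% for ARCHS, and those whose kit arrays all lay below made up 20.5%, 47.9% and 30.6%. Without AFFX2rd replicate 2, 811 probe sets were called in that comparison, 433 higher and 378 lower. Without NGN replicate 2, 2067 were called for NGN, 597 higher and 1470 lower.

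The called probe sets of AFFX2rd were mostly ones where AFFX2rd lay near the one-cycle signal and BIIB did not. AFFX2rd was the nearer of the 2 protocols for 89.8% of the probe sets called higher and 85.9% of those called lower. For NGN the kit was the nearer one for 22.4% of those called higher and 10.4% of those called lower. For ARCHS these shares were 59.1% and 38.1%. The median distance of BIIB from the one-cycle mean was -1.58 where AFFX2rd was called higher and 1.70 where it was called lower. For NGN the kit itself lay at medians of 2.46 and -2.86 from the one-cycle mean.

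Several of the genes with the largest differences were read brightly by cDNA target and hardly at all by cRNA target. Thoc1 encodes a subunit of the THO mRNA export complex, and its probe set 1420043_s_at gave 41794, 45590, 38543 and 39612 on the BIIB arrays and 92605 and 133960 on the NGN arrays. On the AFFX2rd arrays it gave 135.2 and 587.6, on the ARCHS arrays 411.5 and 830.3, and its one-cycle mean was 110.2. No array of a cRNA protocol came near an array of a cDNA protocol. The difference from BIIB was -6.59 log2 units (SE 0.43, adjusted p = 5.5e-06) for AFFX2rd and -5.85 (SE 0.35, adjusted p = 9.17e-07) for ARCHS.

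Rbm39, a splicing coactivator, followed the same order at 1420982_at. This probe set gave 29505 to 34870 on the BIIB arrays and 90454 and 159747 on the NGN arrays. It gave 118.8 and 294.3 on the AFFX2rd arrays and 601.4 and 915.5 on the ARCHS arrays. Other Rbm39 probe sets were called both ways in AFFX2rd. Lower than BIIB were 1438397_a_at (-4.19, SE 0.47) and 1426671_a_at (-1.36, SE 0.38), and higher were 1442745_x_at (2.11, SE 0.36) and 1446148_x_at (1.85, SE 0.43). Atp5a1, the alpha subunit of mitochondrial ATP synthase, gave 54236 to 70695 with BIIB and 73550 and 120928 with NGN at 1420037_at. The same probe set gave 284.6 and 395.7 with AFFX2rd and 1623 and 1911 with ARCHS, with a one-cycle mean of 353.2. Its difference from BIIB was -7.03 (SE 0.33, adjusted p = 8.10e-07) for AFFX2rd and -5.00 (SE 0.27, adjusted p = 6.59e-07) for ARCHS. Rpl27a, a protein of the large ribosomal subunit, was -6.27 (SE 0.50, adjusted p = 2.18e-05) for AFFX2rd and -4.45 (SE 0.41, adjusted p = 9.85e-06) for ARCHS at 1437729_at. At 1420982_at, 1420037_at and 1437729_at the cRNA arrays and the cDNA arrays did not overlap.

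Beta-actin shows that such a result belongs to a probe set and not to the gene. Actb 1419734_at gave 115450 to 163102 on the BIIB arrays, 261188 and 372079 on the NGN arrays, 7699 and 5106 on the ARCHS arrays, and 576.6 and 1216 on the AFFX2rd arrays. AFFX2rd was lower than BIIB there by -7.21 (SE 0.38, adjusted p = 1.50e-06). The array's own control probe set at the 3' end of beta-actin gave 124380 and 75476 on the AFFX2rd arrays and 127299 to 248026 on the BIIB arrays. On the NGN arrays the same control gave 40220 and 7831. NGN was therefore above every BIIB array at one probe set for beta-actin and below every BIIB array at another.

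Whether target type orders the differences at large was examined with comparisons that share no array. Of the 1862 probe sets higher in AFFX2rd than in BIIB, 362 (19.4%) were also higher in ARCHS than in NGN (12.9% of the 2797 there), against 21.7% of all probe sets tested. Of the 1218 lower in AFFX2rd than in BIIB, 153 (12.6%) were lower in ARCHS than in NGN (14.1% of the 1088 there), against 8.43% of all. Of the 2391 higher in ARCHS than in BIIB, 505 (21.1%) were higher in AFFX2rd than in NGN (16.2% of the 3124 there), against 24.2% of all. Of the 2888 lower in ARCHS than in BIIB, 192 (6.65%) were lower in AFFX2rd than in NGN (21% of the 914 there), against 7.08% of all.

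Genes that a cRNA kit read far above BIIB included Poldip3, Spin1 and Uqcrb. Poldip3, a protein that binds DNA polymerase delta and takes part in mRNA translation, gave 589 to 1260 on the BIIB arrays, 17516 and 12976 on the AFFX2rd arrays, 54219 and 42449 on the ARCHS arrays, and 6137 and 4356 on the NGN arrays (1437837_x_at). The one-cycle mean was 13086. The difference from BIIB was 3.98 (SE 0.41, adjusted p = 1.44e-04) for AFFX2rd and 5.64 (SE 0.33, adjusted p = 9.17e-07) for ARCHS. Spin1, a reader of methylated histones, was higher by 3.92 (SE 0.41) in AFFX2rd and 5.64 (SE 0.34) in ARCHS at 1436809_a_at. Its probe set 1415795_at was lower in ARCHS by -2.20 (SE 0.57), and 1415794_a_at (-0.61) and 1460164_at (0.10) were not called. Lrrc58 was higher in AFFX2rd by 4.49 (SE 0.47, adjusted p = 1.60e-04), with signals of 6716 and 7734 against 70.5 to 394 on the BIIB arrays. Oxt, which encodes the oxytocin precursor, was higher by 3.96 (SE 0.49), with signals of 1198 and 5493 on the AFFX2rd arrays. Without replicate 2 the Oxt difference was 2.92 (adjusted p = 0.0081), and those of Poldip3 and Spin1 were 4.19 and 4.10.

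ARCHS reached the brightest signals of any kit in several of these genes. Uqcrb, a subunit of respiratory complex III, gave 494896 and 456909 on the ARCHS arrays, against 164757 and 104207 with AFFX2rd, 34904 and 68036 with NGN and 11579 to 18867 with BIIB. ARCHS exceeded BIIB by 4.96 (SE 0.32, adjusted p = 1.27e-06), and AFFX2rd was lower than ARCHS there by -1.86 (SE 0.43, adjusted p = 0.0223). Snap47, a SNARE-related membrane protein, gave 124196 and 118786 with ARCHS and 3026 to 4761 with BIIB, a difference of 4.92 (SE 0.29). Nfkbia, the inhibitor of NF-kappaB, gave 126780 and 130141 with ARCHS and 2678 to 3931 with BIIB, a difference of 5.28 (SE 0.27, adjusted p = 6.02e-07). Another probe set for Nfkbia, 1448306_at, was lower in ARCHS than in BIIB by -3.10 (SE 0.41, adjusted p = 1.03e-04). In the lower direction ARCHS was led, after Thoc1, by Tmem97, a membrane protein of cholesterol transport, at 65.8 and 93.1 against 7492 to 12539 with BIIB (-5.52, SE 0.29, adjusted p = 6.18e-07). Tmem97 gave 1542 and 1188 with AFFX2rd, and AFFX2rd exceeded ARCHS there by 2.86 (SE 0.39, adjusted p = 0.003).

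**Figure D2:**
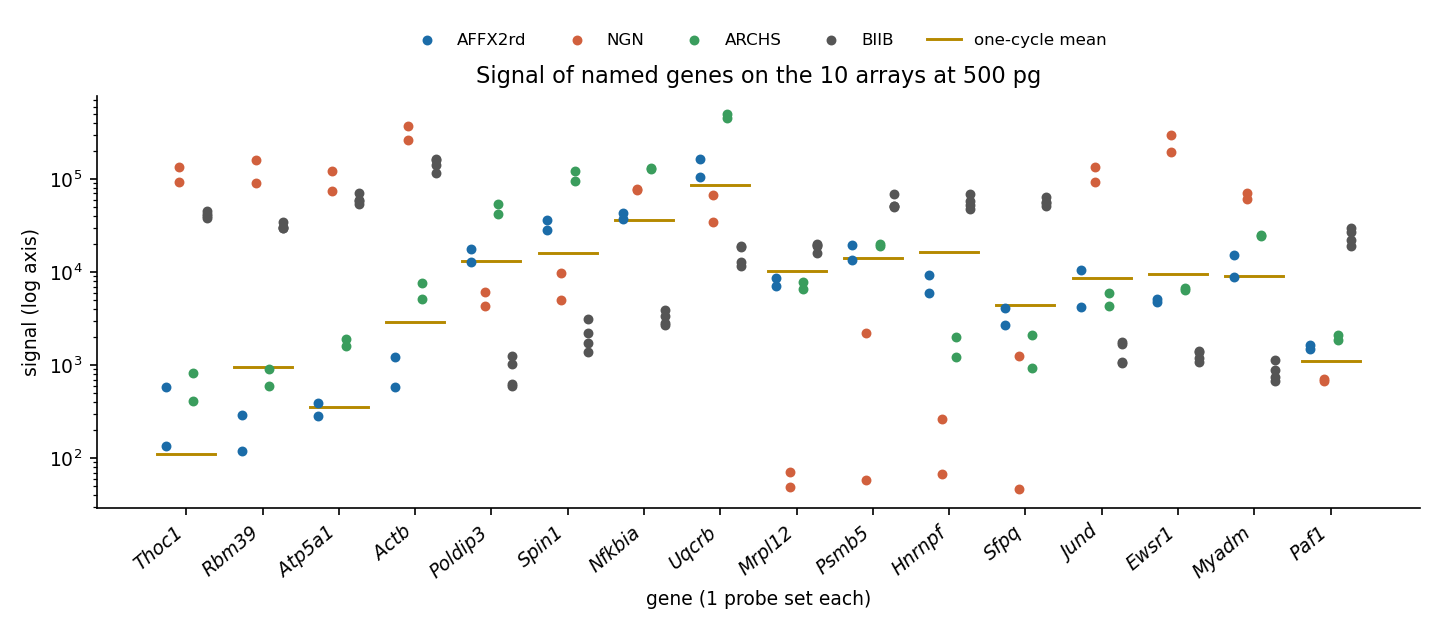
Signal on a log axis of 16 named genes, 1 probe set each, with 1 point per array at 500 pg and a horizontal line at the one-cycle mean. For Thoc1, Rbm39 and Atp5a1 the NGN and BIIB points lie far above the AFFX2rd and ARCHS points, and for Mrpl12 both NGN points (70.9 and 49.5) lie far below all others.

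NGN read some genes more brightly than any other protocol. Ewsr1, an RNA-binding protein of the FET family, gave 194647 and 296228 on the NGN arrays at 1436884_x_at. The same probe set gave 1092 to 1404 on the BIIB arrays, 5106 and 4816 on the AFFX2rd arrays and 6413 and 6731 on the ARCHS arrays. The difference from BIIB was 7.43 (SE 0.60, adjusted p = 2.36e-04). Dnmt1, the maintenance DNA methyltransferase, was higher by 6.78 (SE 0.75, adjusted p = 3.63e-04) at 83983 and 118199. Marcks, a membrane-bound substrate of protein kinase C, was higher by 6.63 (SE 0.68) and the transcription factor Foxp1 by 6.62 (SE 1.00). Klhl2, a cullin adaptor, gave 27269 and 40416 with NGN and 31.4 to 278 with BIIB, a difference of 6.79 (SE 0.94). For Ewsr1 the other tested probe set, 1417238_at, was lower in NGN than in BIIB by -3.13 (SE 0.98, adjusted p = 0.0247).

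At the other end, some genes gave far lower signals with NGN than with BIIB. The median signals of the NGN arrays were 321.3 and 366.5, so some of the values below lie above them. Mrpl2, a protein of the large mitochondrial ribosomal subunit, gave 123 and 28.4 on the NGN arrays, 8558 and 7947 with AFFX2rd, 11456 and 8769 with ARCHS, and 27756 to 35306 with BIIB. It was lower than BIIB by -7.34 (SE 0.62, adjusted p = 2.36e-04). Hnrnpf, a splicing regulator that binds G-rich RNA, gave 260 and 66.8 with NGN, 1229 and 2016 with ARCHS, 9407 and 5969 with AFFX2rd and 48209 to 69088 with BIIB, a graded series in which no groups overlapped. Its difference from BIIB was -7.71 (SE 0.71, adjusted p = 3.48e-04) for NGN, -5.06 (SE 0.31, adjusted p = 9.71e-07) for ARCHS and -2.90 (SE 0.38, adjusted p = 6.02e-04) for AFFX2rd. Rcn3, a calcium-binding protein of the endoplasmic reticulum, was lower by -7.02 (SE 0.70) with NGN, at 394 and 39.7. Prpf6, a component of the spliceosomal tri-snRNP, was lower by -6.94 (SE 0.78), at 454 and 1075 against 87999 to 119929.

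Some genes were called on the same side of BIIB with all 3 kits. They were picked for this from comparisons that share the BIIB arrays, so their likeness across kits is not used as evidence. Myadm, a membrane protein first found in myeloid differentiation, gave 676 to 1121 with BIIB, 15214 and 8936 with AFFX2rd, 25162 and 24618 with ARCHS, and 61487 and 71507 with NGN. The differences were 3.61 (SE 0.36), 4.70 (SE 0.30) and 6.10 (SE 0.67), and the one-cycle mean was 9065. Tmed5, a cargo receptor of the early secretory pathway, was higher by 3.52 (SE 0.37) in AFFX2rd, 3.75 (SE 0.30) in ARCHS and 4.35 (SE 0.69) in NGN. In the other direction Paf1, a subunit of the RNA polymerase II elongation complex of the same name, gave 18864 to 29676 with BIIB. It gave 1644 and 1494 with AFFX2rd, 1856 and 2120 with ARCHS, and 701 and 675 with NGN, and the one-cycle mean was 1101. Tufm, the mitochondrial elongation factor Tu, gave 8660 to 11373 with BIIB at 1449673_s_at and no more than 448 on any kit array, with a one-cycle mean of 65.4. Sfpq, a nuclear RNA-binding protein of paraspeckles, gave 51067 to 63994 with BIIB, 2694 and 4094 with AFFX2rd, 930 and 2106 with ARCHS, and 1250 and 46.1 with NGN.

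Because each gene can have several probe sets, the direction of a difference sometimes depended on which was read. Among genes with several tested probe sets and at least 1 call, 9.73% were called both higher and lower by different probe sets for AFFX2rd (130 genes), 11.7% for NGN (210 genes) and 19.8% for ARCHS (389 genes). The genes named in this paragraph were chosen after their values were seen, as those with the widest spread. Seh1l, a nucleoporin, was lower in AFFX2rd by -3.83 (SE 0.38) at 1419967_at, where the one-cycle mean was 473.9. It was higher by 3.73 (SE 0.38) at 1424199_at, where the one-cycle mean was 5629. Ddx21, a nucleolar RNA helicase, was higher in NGN by 5.06 (SE 0.83) at 1448270_at and lower by -5.04 (SE 0.83) at 1448271_a_at. Kif22, a chromosome-binding kinesin, was higher in ARCHS by 4.74 (SE 0.45) at 1437716_x_at and lower by -3.38 (SE 0.32) at 1423813_at. Probe sets whose names end in _x_at, which hold probes that can match more than 1 gene, were called higher in ARCHS at 41.4%, against 15.6% of those with a plain _at name. For AFFX2rd these shares were 22.3% and 14.1%, and for NGN 17.1% and 10.2%.

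NGN read the machinery of mitochondria and the proteasome low. Each listed gene was represented by its probe set with the highest mean over the 10 arrays. Of 74 genes of the mitochondrial ribosome, which makes the proteins encoded by mitochondrial DNA, NGN was lower than BIIB at 48 and higher at 1. Of 40 proteasome genes, which encode the complex that degrades ubiquitinated proteins, NGN was lower at 30 and higher at 0. Of 71 genes of oxidative phosphorylation, NGN was lower at 39 and higher at 1. These counts stand beside 28.4% of all probe sets called lower and 10.8% called higher, and beside 36.6% to 45.1% called lower among probe sets with one-cycle signals of 2501 to 20000. The median differences from BIIB were -2.77 for the mitochondrial ribosome, -3.20 for the proteasome and -2.11 for oxidative phosphorylation, against -1.09 for all probe sets. Without NGN replicate 2 the lower counts were 27, 12 and 18, when 11.3% of all probe sets were called lower.

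Some members of these lists were near the floor on the NGN arrays. Mrpl12, a mitochondrial ribosomal protein that also binds the mitochondrial RNA polymerase, gave 70.9 and 49.5 with NGN and 16054 to 20094 with BIIB. The difference was -6.66 (SE 0.60, adjusted p = 3.48e-04). Mrps14, of the small mitochondrial subunit, gave 35.1 and 49.8 with NGN, 20157 and 11939 with AFFX2rd, 27600 and 33884 with ARCHS and 12460 to 20728 with BIIB. Psmb5, the chymotrypsin-like catalytic subunit of the proteasome, gave 2234 and 57.9 with NGN and 50228 to 69335 with BIIB (-6.39, SE 0.84, adjusted p = 4.60e-04). Ndufv1, a complex I subunit that oxidises NADH, gave 356 and 11408 with NGN and 78585 to 91281 with BIIB, so the 2 NGN arrays themselves disagreed. An exception was Mrpl44, which NGN read higher than BIIB by 4.12 (SE 0.63), at 26636 and 22819 against 1145 to 1502.

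Counts for other lists with NGN are set beside 28.4% of all probe sets called lower and 10.8% called higher. Of 36 mitotic and DNA replication genes NGN was lower at 21 and higher at 3, and Mcm7, a subunit of the replicative helicase, gave 1053 and 99.4 against 34675 to 43091 with BIIB (-6.22, SE 0.74, adjusted p = 3.78e-04). Of 20 chaperonin and heat shock genes 10 were lower and 3 higher, and of 34 translation factors 14 were lower and 3 higher. Of 13 reference genes 5 were lower and 2 higher, and their median difference was 0.52. Of 43 cytosolic ribosomal protein genes 13 were lower and 2 higher, close to the share over all probe sets. Rplp0, of the ribosomal stalk, gave 11038 and 3859 with NGN and 184214 to 258110 with BIIB. Of 13 macrophage markers 8 were lower and 0 higher. Without NGN replicate 2, the lower counts were 11 mitotic, 5 chaperonin, 7 translation factor, 7 ribosomal, 3 reference and 5 macrophage genes, when 11.3% of all probe sets were called lower. Mpeg1, a pore-forming protein of macrophages, gave 64.5 and 63.9 with NGN and 3211 to 11585 with BIIB.

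The immediate early genes, which cells switch on within minutes of a stimulus, went against this trend with NGN. Of 25 tested, NGN was higher than BIIB at 9 and lower at 4, against 10.8% and 28.4% of all probe sets. Here NGN lay near the one-cycle mean and BIIB below it. The list's median distance from that mean was -0.08 for NGN and -0.74 for BIIB. It was -0.17 for AFFX2rd and -1.04 for ARCHS. Leaving out either NGN array left 5 called higher, with 4 lower without replicate 1 and 2 lower without replicate 2, when 5.47% and 4.6% of all probe sets were called higher. Jund, a subunit of the AP-1 transcription factor, gave 91990 and 135350 with NGN, 4209 and 10514 with AFFX2rd, 5908 and 4272 with ARCHS and 1060 to 1760 with BIIB, a difference of 6.23 (SE 0.80, adjusted p = 4.38e-04). Klf6, a zinc finger transcription factor, was higher by 5.14 (SE 0.64, adjusted p = 4.02e-04) and Dusp6, a phosphatase of ERK kinases, by 4.00 (SE 0.61). Myc was lower by -4.11 (SE 0.64), at 728 and 512 against 10882 to 14290. AFFX2rd was higher than BIIB at 10 of the 25 and lower at 1. Nr4a1, an orphan nuclear receptor, gave 3090 and 3836 with AFFX2rd and 734 to 915 with BIIB (1.92, SE 0.33, adjusted p = 0.0025). For Egr3 the AFFX2rd arrays gave 324 and 5472, and without replicate 2 its difference was 0.97 (adjusted p = 0.359). Without that array 2 of 24 immediate early genes were called higher in AFFX2rd, when 3.52% of all probe sets were.

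ARCHS differed from NGN in how it read the respiratory chain. Of the 71 oxidative phosphorylation genes ARCHS was higher than BIIB at 30 and lower at 10, against 18.5% and 22.4% of all probe sets. Among bright probe sets, with one-cycle signals of 5000 and above, the shares by level were 22.3% to 28.5% higher and 17.8% to 25.7% lower. The list's median difference was 0.59, against -0.05 for all. Besides Uqcrb, Cox6b1, a subunit of cytochrome c oxidase, was higher by 3.68 (SE 0.32, adjusted p = 6.95e-06), at 134656 and 111943 against 7069 to 12432. Cycs, cytochrome c itself, was higher by 3.55 (SE 0.28, adjusted p = 4.47e-06). Atp5o, the oligomycin sensitivity subunit of ATP synthase, was lower by -2.53 (SE 0.34), at 6178 and 3178 against 18730 to 30061. With either ARCHS array left out, 28 genes of the list were called higher.

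Of the chromatin regulators and the proteasome, ARCHS was called lower at more genes than it was called higher. Of 25 chromatin regulators ARCHS was lower than BIIB at 12 and higher at 2, against 22.4% and 18.5% of all probe sets. This was not particular to ARCHS. NGN was lower at 12 and higher at 4, against 28.4% and 10.8% of all. AFFX2rd was lower at 6 and higher at 1, against 9.44% and 14.4%. The 3 comparisons share the BIIB arrays. Kmt2e, a relative of the MLL methyltransferases, gave 716 and 678 with ARCHS and 23473 to 27078 with BIIB, a difference of -4.97 (SE 0.30, adjusted p = 9.71e-07). Smarca4, the ATPase of SWI/SNF remodellers, gave 429 and 305 against 6450 to 13844 (-4.28, SE 0.35, adjusted p = 5.40e-06). Of the 40 proteasome genes 15 were lower and 4 higher in ARCHS, against 22.4% and 18.5% of all probe sets. Psmd7, a lid subunit, gave 108 and 662 with ARCHS, 5097 and 4618 with AFFX2rd, 353 and 373 with NGN, and 11288 to 25364 with BIIB (-5.10, SE 0.46, adjusted p = 8.53e-06). Of 48 splicing factor and hnRNP genes ARCHS was higher at 16 and lower at 16. Hnrnpc was higher by 3.48 (SE 0.30) and Hnrnpf and Sfpq, described above, were lower.

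AFFX2rd was called at fewer genes of the respiratory chain, mitochondrial ribosome and proteasome than the other kits. It was also called at fewer of all probe sets (23.9%, against 39.1% for NGN and 40.9% for ARCHS). Of the 71 oxidative phosphorylation genes it was higher than BIIB at 9 and lower at 10, of the 74 mitochondrial ribosomal genes higher at 7 and lower at 18, and of the 40 proteasome genes higher at 0 and lower at 8. Background shares were 14.4% higher and 9.44% lower, and the lower counts of the mitochondrial ribosome and the proteasome stood above the latter. Of 48 splicing factor and hnRNP genes it was higher at 16 and lower at 6. Srsf2, an SR protein, gave 12152 and 6668 with AFFX2rd and 619 to 1369 with BIIB (3.30, SE 0.47, adjusted p = 9.87e-04). Nono, the partner of Sfpq, was higher by 2.90 (SE 0.36, adjusted p = 4.21e-04), while Sfpq itself was lower by -4.04 (SE 0.47, adjusted p = 2.80e-04). Relative to all probe sets, the median of the oxidative phosphorylation list was -0.05 here and 0.40 after quantile normalization, so it has no settled side. That of the cytosolic ribosomal proteins likewise turned, from -0.64 to 0.18. Without replicate 2 of AFFX2rd, 7 oxidative phosphorylation genes were called higher and 3 lower, 1 and 3 mitochondrial ribosomal genes, 0 and 1 proteasome genes, and 6 and 2 splicing genes, when 3.52% and 3.08% of all probe sets were.

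**Figure D3:**
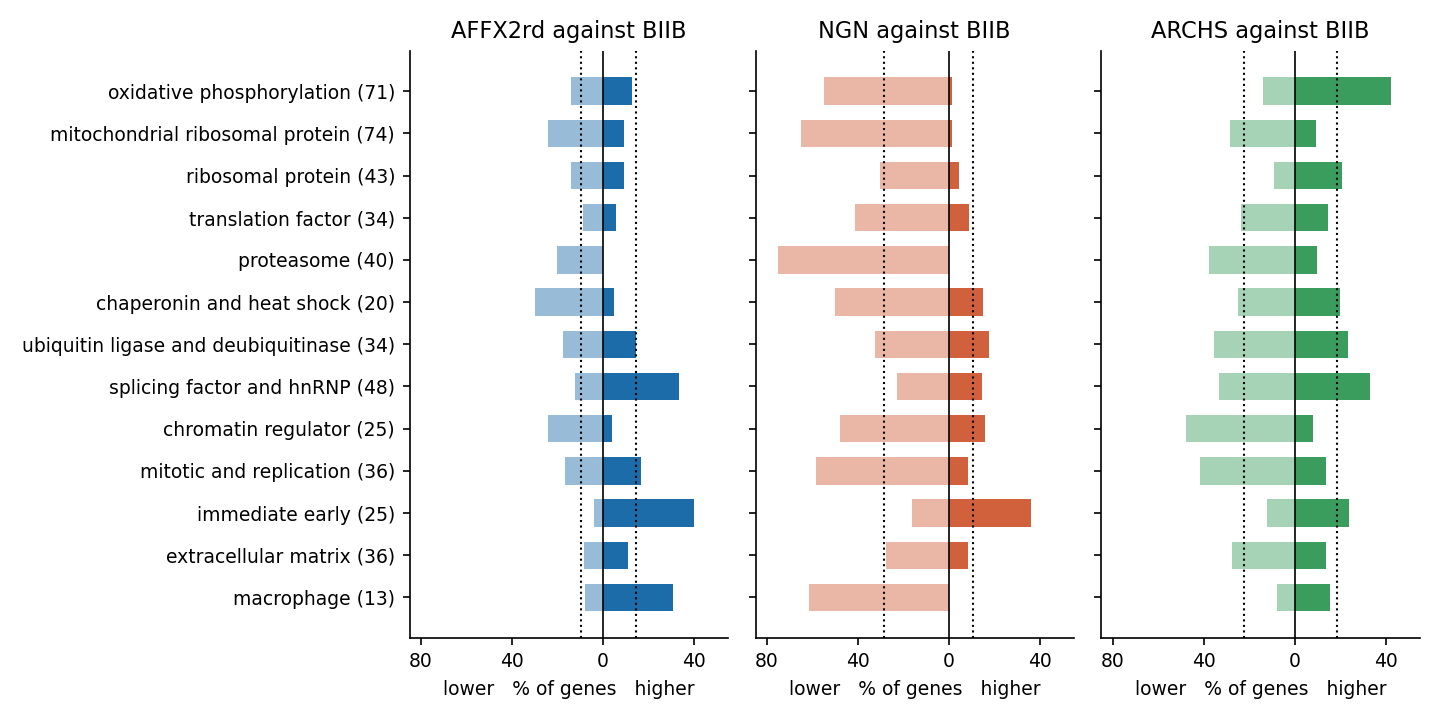
Share of the genes of 13 lists (number tested in brackets) called higher than BIIB (dark bars, to the right) or lower (pale bars, to the left) at 500 pg. Dotted lines mark the shares of all probe sets called in each direction. With NGN, 30 of 40 proteasome genes lie to the left, and with ARCHS 30 of 71 oxidative phosphorylation genes lie to the right.

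Long noncoding RNAs and the globin probe set gave results of their own. Xist, the noncoding RNA that silences an X chromosome in females, gave 734 to 2033 with BIIB, 8207 and 4244 with AFFX2rd, 15955 and 15284 with ARCHS and 26015 and 24630 with NGN at 1436936_s_at. The one-cycle mean was 16317. The differences from BIIB were 2.09 (SE 0.50, adjusted p = 0.0118), 3.48 (SE 0.41, adjusted p = 4.69e-05) and 4.17 (SE 0.93, adjusted p = 0.00477). Malat1 at 1418189_s_at was lower in ARCHS than in BIIB by -2.66 (SE 0.34), at 2649 and 4370 against 15676 to 28947. Hba-a2, an alpha globin and the only tested erythroid marker, gave 4365 to 5154 with BIIB and 157 on the one-cycle arrays. It gave 16.2 and 399 with AFFX2rd, 2281 and 1223 with ARCHS, and 145 and 934 with NGN.

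Comparing the kits with each other, AFFX2rd and ARCHS were the closest pair. Between them 1268 probe sets were called (9.83%), 883 higher (6.84%) and 385 lower (2.98%) in AFFX2rd. Between AFFX2rd and NGN 4038 were called (31.3%), 3124 higher (24.2%) and 914 lower (7.08%) in AFFX2rd. Between ARCHS and NGN 3885 were called (30.1%), 2797 higher (21.7%) and 1088 lower (8.43%) in ARCHS. After quantile normalization 58.9% of the AFFX2rd and NGN calls were higher in AFFX2rd, instead of 77.4%, and 60.6% of the ARCHS and NGN calls higher in ARCHS, instead of 72.0%. For AFFX2rd against ARCHS the share higher in AFFX2rd was 59.7%, instead of 69.6%. The AFFX2rd and ARCHS count fell to 168 without AFFX2rd replicate 2. Mrps14 was higher in ARCHS than in NGN by 7.52 (SE 0.72, adjusted p = 7.04e-04) and in AFFX2rd than in NGN by 6.55 (SE 0.75, adjusted p = 0.00108). Thoc1 was -8.02 (SE 0.87, adjusted p = 0.00104) in AFFX2rd and -7.28 (SE 0.83, adjusted p = 7.17e-04) in ARCHS against NGN. Psmb7, a trypsin-like catalytic subunit of the proteasome, was higher in AFFX2rd than in ARCHS by 3.78 (SE 0.68, adjusted p = 0.0089), at 18321 and 8188 against 284 and 1858.

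Whether the differences belonged to 500 pg or to the kits at any low input was asked with the 5 ng arrays, which are other arrays throughout. At 5 ng 32.5% of 12524 probe sets were called for AFFX2rd (19.1% higher, 13.3% lower), 52.3% for NGN (21.9% higher, 30.3% lower) and 37.6% for ARCHS (15.9% higher, 21.7% lower). For AFFX2rd, 80.7% of the probe sets called higher at 500 pg and also tested at 5 ng were called higher there, and 78.4% of those called lower were called lower. For ARCHS these shares were 67.6% and 72.6%. For NGN they were 90.6% and 65.8%, and 43 probe sets called lower at 500 pg were called higher at 5 ng. No probe set changed direction in this way for the other kits. Across the 12154 probe sets tested at both inputs, Pearson's r between the differences from BIIB was 0.885 for AFFX2rd, 0.819 for NGN and 0.894 for ARCHS, as a description over probe sets of the same design.

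**Figure D4:**
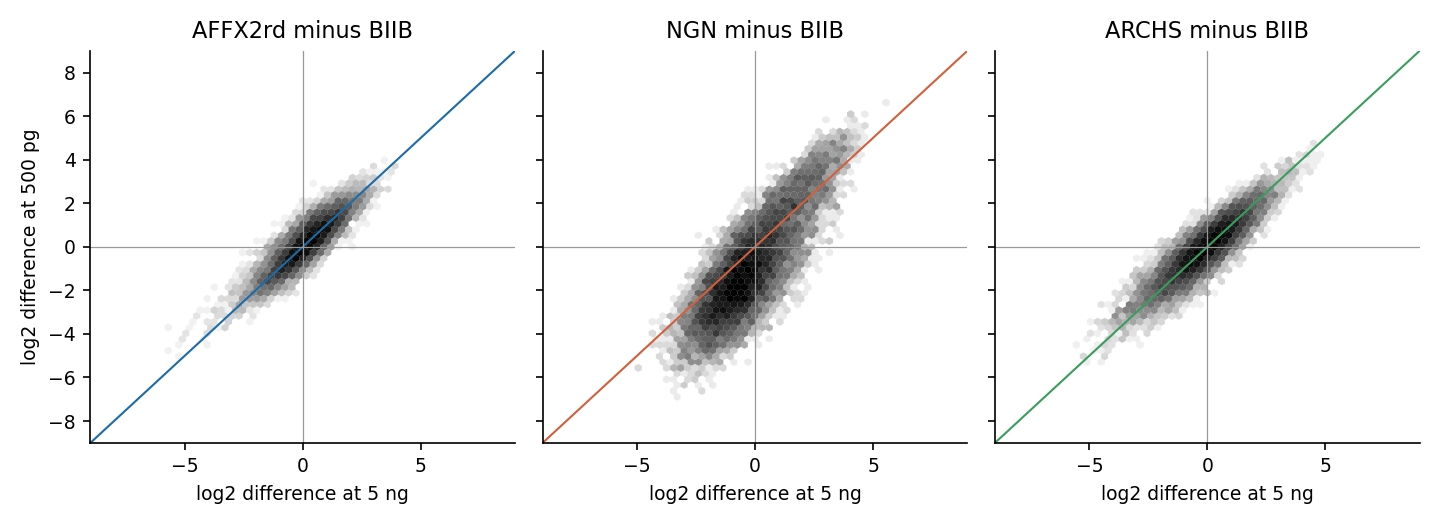
Difference of each kit from BIIB at 500 pg (vertical) against that at 5 ng (horizontal), in log2 units, with darker cells holding more probe sets on a log scale and the line of equality drawn. The NGN cloud lies below the line over most of its length, and the other 2 clouds lie along it.

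NGN's difference from BIIB itself changed with input, in a test of the difference between differences. Of 12700 probe sets 810 were called (6.38%), 796 of them lower at 500 pg relative to 5 ng (6.27%) and 14 higher (0.11%). The median change over all probe sets was -0.73. For AFFX2rd and ARCHS 0 probe sets (0%) passed this test in limma, while 751 and 863 had an unadjusted p under 0.05. Without NGN replicate 2 at 500 pg, 52 probe sets were called for NGN. The mitochondrial ribosome had 20 of 74 genes lower at 500 pg in this test, oxidative phosphorylation 16 of 71 and the proteasome 10 of 40, and the cytosolic ribosomal proteins had 0 of 43. Mrpl12 gave 3279 and 3144 at 5 ng where it gave 70.9 and 49.5 at 500 pg, and its difference from BIIB changed by -4.83 (adjusted p = 0.00475). Mcm7 gave 8464 and 9016 at 5 ng, a change of -4.11 (adjusted p = 0.00414). Ndufs7, an iron-sulfur subunit of complex I, gave 13771 and 13515 at 5 ng against 570 and 2120 at 500 pg (-3.77). Mrpl12, Mcm7 and Ndufs7 were named for large differences at 500 pg, a choice that by itself favours smaller ones at 5 ng. Jund, high at 500 pg, was 35238 and 44838 at 5 ng, and its change of 1.51 did not pass (adjusted p = 0.312).

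The control probe sets for beta-actin and Gapdh gave a reading of how far the target reached toward the 5' end. The 3' to 5' ratio of signals for beta-actin was 1.19 on average on the one-cycle arrays. At 500 pg it was 4.84 and 4.29 with AFFX2rd, 12.8 to 17.7 with BIIB, 79.2 and 81.6 with ARCHS, and 411.7 and 25.6 with NGN. For Gapdh the ratio was 0.839 on average with one-cycle, 4.35 and 3.43 with AFFX2rd, 5.01 to 9.53 with BIIB, 23.5 and 25.9 with ARCHS, and 105.6 and 97.0 with NGN. For these 2 transcripts the AFFX2rd ratios were below those of every BIIB array, and the ARCHS and NGN ratios above them. After quantile normalization the Gapdh ratios of AFFX2rd (5.05 and 4.06) no longer lay apart from those of BIIB (5.05 to 8.12), and those of NGN were 43.5 and 35.6. The beta-actin ratio of NGN replicate 2 was then 16.42, barely above the highest BIIB ratio of 16.33, and that of replicate 1 was 144.4. The controls for 2 dimmer transcripts did not follow this order. For pyruvate carboxylase the ratio was 0.0748 and 0.241 with NGN, below every BIIB array (lowest 1.34), and for the transferrin receptor the arrays of each kit overlapped those of BIIB. At 5 ng NGN gave mean ratios of 5.41 for beta-actin and 3.55 for Gapdh, while ARCHS gave 93.2 and 33.4. The ratio of beta-actin on NGN replicate 1 rests on a 5' signal of 97.7. On the 18S rRNA controls, the 5' probe set gave 48.5 and 123.7 with NGN, 6224 and 7652 with ARCHS, 12862 to 23659 with BIIB and 63215 and 32805 with AFFX2rd. The probe set in the middle of the same rRNA gave 66380 and 45802 with NGN, 16398 and 19922 with ARCHS, 48836 to 57115 with BIIB and 103383 and 44559 with AFFX2rd. The part of 3' to 5' coverage in the differences above was not tested.

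**Figure D5:**
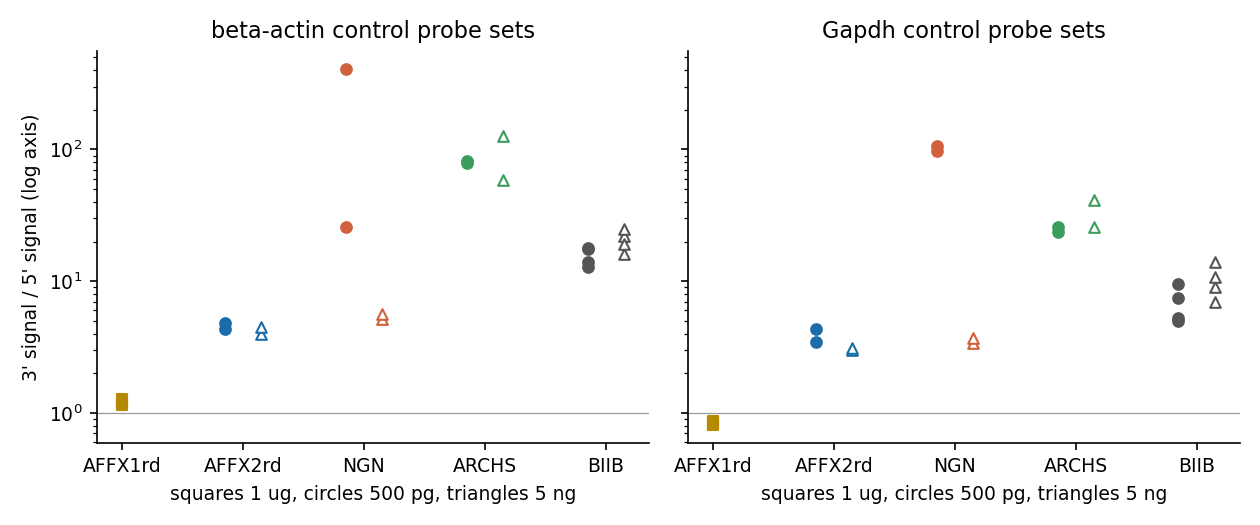
Ratio of 3' to 5' control signal for beta-actin and Gapdh on a log axis, 1 point per array (squares one-cycle at 1 ug, circles 500 pg, triangles 5 ng). NGN moves from above all BIIB arrays at 500 pg to below all of them at 5 ng.

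Gene length and promoter composition were set beside the calls as a description. The median length of the gene on the genome, over the 7735 of 7743 tested genes with a length in the RefSeq table (GRCm38.p6), was 22369 bases. It was 33278 bases for genes called higher in NGN than in BIIB and 18378 bases for genes called lower. For AFFX2rd these medians were 23392 and 19380, and for ARCHS 21276 and 22197. The median GC content of the promoter window was 63.3% for genes called higher in NGN and 60.7% for those called lower, against 61.3% for all 6333 genes matched to a promoter. These lengths include introns and are not transcript lengths.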

How the data were processed

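Target from each RNA sample was hybridised to Affymetrix mouse arrays. The authors deposited 1 table of linear signal intensity per probe set, made with MAS5 per the submitters' processing notes. Its version, background correction and scaling target are not given in the sources used here. Every deposited array had the same trimmed mean signal (2500 to 2502 after trimming 2% at each end), so the authors' signals carry no total intensity, and a kit's signal is relative to its own array's mean. The members and gene lists were chosen with earlier results of these data known.

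Signals were rescaled to the common trimmed mean of 2501. A pseudocount of 125 (5%) was added and log2 taken. Control probe sets (64 of 22690) were left out, and 12904 probe sets with a mean of at least 500 (20%) over the 10 arrays were fitted with limma 3.58.1 in R 4.3.3, with array weights estimated per group (1.71 for BIIB, 1.62 for ARCHS, 0.937 for AFFX2rd, 0.225 for NGN) and Benjamini-Hochberg adjustment over all of them. Fold changes are on the log2(signal + pseudocount) scale, which understates the change of dim genes. Arrays at 5 ng were fitted the same way (12524 probe sets), and both inputs together for the change with input (12700). Symbols came from the platform annotation, checked against RefSeq names. On data simulated from these arrays, changes of 1.5 and 2.5 log2 units were planted. They were planted in a small part of the probe sets, with no shift of all of them. In the real fit 39.1% of probe sets were called for NGN, so the rates below describe the simulated setting alone. Weights per group gave 2 false calls of 62 for AFFX2rd, 0 calls for NGN and 4 false of 110 for ARCHS. They recovered 2% and 58% of the planted changes for AFFX2rd, 0% and 0% for NGN and 24% and 82% for ARCHS. Equal weights gave 213 false of 296 for NGN and recovered 26% and 57% there. Named genes were the 6 largest called differences in each direction per kit without overlap between groups, the 6 with the largest smallest change among genes called one way in all 3 kits, up to 3 called members of each list per direction, and the 3 largest replicate differences each way. Alternatives were other weights, scalings, pseudocounts, filters, array subsets, a replicate block and leaving out each array.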

Additional observations from a re-analysis of the deposited data

Results flagged for a closer look

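On 5 of 62 sets of 4 BIIB signals looked at, 1 array lay far from the other 3 (chance gives about 1 in 20). Rbm39 (1420982_at) was 34870 on BIIB replicate 4 and 29505 to 30325 on the others. Klhl2 (1426978_at) was 31.4 on replicate 4 and 237 to 278.1 on the others. Psmd7 (1451056_at) was 25363.5 on replicate 4 and 11288 to 12864 on the others. Arfgap2 was 302 on replicate 1 and 492.9 to 524.3 on the others. Pdrg1 was 5343.1 on replicate 2 and 7487 to 7899 on the others. The sources of these single signals were not tested.

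The difference between NGN and BIIB changed with input, by limma's test of the difference between differences, at 810 probe sets. For 7 of the genes where it changed, the change from 5 ng to 500 pg was -3.28 for Hnrnpf (adjusted p = 0.019), -2.92 for Mrpl2 (adjusted p = 0.0143), -3.44 for Rcn3 (adjusted p = 0.0163) and -4.01 for Prpf6 (adjusted p = 0.0149). It was -3.67 for Sfpq (adjusted p = 0.0326), -3.95 for Tufm (adjusted p = 0.0473) and -3.27 for the ribosome assembly factor Rpf2 (adjusted p = 0.00975). These 7 lay further below BIIB at 500 pg than at 5 ng. They were looked up because they had the largest differences at 500 pg, or were called with every kit there. That choice by itself favours a smaller difference at 5 ng, so they do not speak for other genes.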

How the results depend on the processing

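Counts of calls moved with the arrays in the fit, with how spread was shared and with the filter. With equal array weights the counts were 2043 for AFFX2rd against BIIB, 8107 for NGN against BIIB, 7503 for AFFX2rd against NGN, 447 for AFFX2rd against ARCHS, 6749 for ARCHS against NGN and 3961 for the change of NGN with input. With no filter on dim probe sets they were 385 for AFFX2rd against BIIB and 0 for AFFX2rd against ARCHS by limma, where 3572 had an unadjusted p under 0.05 with the filter. With quantile normalization they were 2316 for AFFX2rd against NGN, 709 for AFFX2rd against ARCHS and 192 for the change of NGN with input. With plain _at probe sets alone, where fewer were tested, they were 1749, 2923 and 2998 for AFFX2rd, NGN and ARCHS against BIIB, and with BIIB replicates 3 and 4 alone 2007 for AFFX2rd. Apart from the loss of tested probe sets, the cause was not tested.

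Leaving out 1 array at a time gave 811 (without AFFX2rd replicate 2; 1653 without replicate 1) to 3032 for AFFX2rd, 2067 (without NGN replicate 2; 2705 without replicate 1) to 5129 for NGN, and 4072 to 5357 for ARCHS against BIIB. AFFX2rd against NGN gave 641 (without NGN replicate 2; 1559 without replicate 1) to 3154, and ARCHS against NGN 1180 (without NGN replicate 2; 1725 without replicate 1) to 3302. AFFX2rd against ARCHS gave 168 (without AFFX2rd replicate 2; 381 without replicate 1, 455 without ARCHS replicate 1) to 829 (without ARCHS replicate 2). At 5 ng the range was 4067 to 4177 for AFFX2rd, 6267 to 6624 for NGN and 2503 (without ARCHS replicate 1) to 4755 for ARCHS. The change with input ranged from 0 to 15 (without AFFX2rd replicate 1) for AFFX2rd, from 52 (without NGN replicate 2; 302 without replicate 1) to 867 for NGN, and was 0 throughout for ARCHS. A lone array kept its group's weight from the full fit, which had used the array left out. Its spread was otherwise taken from the other groups.

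Replicate numbers did not pair the arrays: deviations of same-numbered arrays correlated at -0.0557 to 0.0529 at 500 pg. With the replicate block, 2701, 5166 and 5532 probe sets were called for AFFX2rd, NGN and ARCHS against BIIB, and 682 for AFFX2rd against ARCHS. Alternative values were counted for named genes with the largest differences and for those called one way with every kit. Of these values, 1236 kept direction and side of the threshold, 13 kept direction and lost the call, and 0 turned. Genes named only as list members were not counted. The counted genes were picked for large differences in these same data, so the counts do not speak for other genes. Of the array measures (replicate spread, correlations and 3' to 5' ratios) 29 stayed within the spread between replicates and 33 moved beyond it. Probe sets near the floor of the NGN arrays have no order, and signal over background was not used here.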

Other observations

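Markers of single cell types in the RNA pool were few, and their readings differed by protocol. Jchain, the joining chain of secreted antibodies, gave 71679 and 43764 with AFFX2rd, 54892 and 67627 with ARCHS, 110858 and 133387 with NGN and 11396 to 13577 with BIIB. Its differences from BIIB in limma's fit were 2.20 (SE 0.34), 2.32 (SE 0.28) and 3.32 (SE 0.63), with adjusted p-values of 0.00136, 5.34e-05 and 0.00212. Igk, the kappa light chain locus of antibodies, went the other way at 1452557_a_at, with 614.7 and 1103 with AFFX2rd against 112938 to 174604 with BIIB. Jchain does not stand for the B cell list, of which 9 genes were tested. AFFX2rd was higher than BIIB at 2 and lower at 1, against 14.4% and 9.44% of all probe sets. NGN was higher at 2 and lower at 1, against 10.8% and 28.4%. ARCHS was higher at 2 and lower at 3, against 18.5% and 22.4%. Afp, the fetal plasma protein alpha-fetoprotein, gave 3904 and 3944 with ARCHS, 133.3 to 615.4 with BIIB, and 19.1 and 26.1 with NGN. ARCHS exceeded BIIB there by 3.29 (SE 0.38, adjusted p = 4.23e-05).

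Of 36 extracellular matrix genes NGN was higher than BIIB at 3 and lower at 10, close to the 10.8% and 28.4% of all probe sets. Without NGN replicate 2 the counts were 0 and 4. Col1a1, a chain of type I collagen, gave 109348 and 167978 with NGN and 9071 to 15694 with BIIB, a difference of 3.42 (SE 0.76, adjusted p = 0.00472). Lamb2, a laminin chain, gave 262 and 33.9 with NGN and 4685 to 6242 with BIIB (-4.56, SE 0.63, adjusted p = 5.48e-04). Relative to all probe sets, the median of this list with NGN was 0.14, and -0.44 after quantile normalization. Among 34 translation factors, Eif4a1, an RNA helicase of cap-dependent initiation, was higher with NGN by 3.80 (SE 0.68), and Eif3i, a subunit of the eIF3 complex, was lower by -5.07 (SE 0.64).

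Probe sets for bacterial control transcripts also differed by protocol. That for the 3' end of bioB, a hybridisation control, gave 45061 and 73610 on the NGN arrays, 11136 to 23302 on the BIIB arrays, 9104 and 6580 on the ARCHS arrays and 4590 and 3349 on the AFFX2rd arrays. That for the 3' end of dap, a polyadenylated control, gave 323.7 and 247.5 on the NGN arrays and 8728 to 17443 on the other 8. The 3' probe sets of the controls thr (273.1 and 55.7) and lys (293.2 and 380.7) were also lowest on the NGN arrays. The other 8 arrays gave 2087 to 9543 for thr and 558.9 to 1724 for lys. That for the 3' end of phe, another such control, went the other way, with 5277 and 7032 on the NGN arrays and 2289 to 4763 on the other 8. At 5 ng NGN gave 11682 and 11310 for dap.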
